A study of Mus musculus with 6 samples.

Results

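The Dlx homeobox family was examined in TdTomato-positive neural crest cells sorted from mouse branchial arches, the embryonic swellings that build the jaws and middle ear. Its members are the 6 genes Dlx1 to Dlx6, taken by symbol from the 21006 symbols of the deposited count table. All 6 passed the filter on low counts and stand among the 14555 tested genes. The DKO group held 3 libraries from E11.5 embryos with floxed alleles of both Ehmt1 and Ehmt2 (Ehmt1f/f, Ehmt2f/f), and the control group held 3 libraries with unfloxed alleles (Ehmt1+/+, Ehmt2+/+). Every library, control libraries included, carried Wnt1-cre, which acts in cells that leave the dorsal neural tube, and the Rosa26 TdTomato/+ reporter used for the sort. Ehmt1 and Ehmt2 encode GLP and G9a, which place mono- and dimethyl marks on lysine 9 of histone H3. The labels call the replicates biological without saying whether a library is 1 embryo or a pool, so p-values measure only the spread between these samples.

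Dlx genes encode homeodomain transcription factors related to fly Distal-less. They lie in the mouse genome as linked pairs, each pair transcribed tail to tail and sharing enhancers, and they form a nested code along the dorsoventral axis of the arches. In mouse arches Dlx1 and Dlx2 are expressed along most of this axis, Dlx5 and Dlx6 in the lower part downstream of endothelin signalling, and Dlx3 and Dlx4 nearest the tip. Mouse embryos that lack both Dlx5 and Dlx6 form upper-jaw structures in place of the lower jaw.

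The stretch of 60 codons that was most alike across the family takes in most of the homeobox, which encodes the DNA-binding domain. It was picked by identity alone, so its ends are not those of an annotated domain. It is shown because it is where reads of one member could most easily be taken for another. It was read from the coding transcripts of GENCODE M21 on mm10. Each sequence runs 5′ to 3′ on the gene's own strand, and capitals mark the bases that all 6 genes share at that position. Each stretch is coding and split over exons, at chr2:71531019-71532305 (Dlx1, plus strand), chr2:71544883-71545521 (Dlx2, minus), chr11:95121761-95123450 (Dlx3, plus), chr11:95141428-95141926 (Dlx4, minus), chr6:6878447-6879663 (Dlx5, minus) and chr6:6865134-6867082 (Dlx6, plus).
Dlx1: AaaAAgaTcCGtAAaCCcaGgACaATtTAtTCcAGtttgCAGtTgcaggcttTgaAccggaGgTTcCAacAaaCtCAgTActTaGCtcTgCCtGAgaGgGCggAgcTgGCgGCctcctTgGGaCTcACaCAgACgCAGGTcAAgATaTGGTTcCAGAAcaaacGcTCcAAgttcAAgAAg
Dlx2: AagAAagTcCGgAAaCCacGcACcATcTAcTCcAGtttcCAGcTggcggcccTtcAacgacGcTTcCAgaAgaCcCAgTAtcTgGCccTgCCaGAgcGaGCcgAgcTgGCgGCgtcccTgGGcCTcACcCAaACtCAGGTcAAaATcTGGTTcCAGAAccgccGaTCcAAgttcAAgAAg
Dlx3: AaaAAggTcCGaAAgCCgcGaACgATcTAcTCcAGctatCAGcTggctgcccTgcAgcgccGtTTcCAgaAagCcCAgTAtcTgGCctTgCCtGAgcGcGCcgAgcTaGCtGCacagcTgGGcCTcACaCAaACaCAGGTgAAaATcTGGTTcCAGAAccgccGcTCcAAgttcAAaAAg
Dlx4: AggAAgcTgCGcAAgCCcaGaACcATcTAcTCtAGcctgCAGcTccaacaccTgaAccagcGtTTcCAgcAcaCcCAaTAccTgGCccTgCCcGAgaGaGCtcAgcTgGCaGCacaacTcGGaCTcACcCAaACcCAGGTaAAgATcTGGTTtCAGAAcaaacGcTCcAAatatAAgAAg
Dlx5: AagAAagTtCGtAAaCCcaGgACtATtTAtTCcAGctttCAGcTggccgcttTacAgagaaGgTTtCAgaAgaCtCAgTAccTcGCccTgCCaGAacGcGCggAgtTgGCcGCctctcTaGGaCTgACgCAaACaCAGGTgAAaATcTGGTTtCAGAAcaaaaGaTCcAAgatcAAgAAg
Dlx6: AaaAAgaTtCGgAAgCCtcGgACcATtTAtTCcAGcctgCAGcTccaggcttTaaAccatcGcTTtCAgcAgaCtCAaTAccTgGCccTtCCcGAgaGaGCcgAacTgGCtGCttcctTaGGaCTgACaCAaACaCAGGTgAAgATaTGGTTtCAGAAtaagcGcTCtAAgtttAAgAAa
All 6 genes had the same base at 94 of 180 positions (52.2%). Linked partners were identical at 72.2% to 74.4% of positions. Dlx1, Dlx4 and Dlx6 form one branch of the family and Dlx2, Dlx3 and Dlx5 the other, and genes of the same branch were identical at 72.2% to 82.8%. The most alike were Dlx2 and Dlx3 (82.8%) and the least alike Dlx4 and Dlx5 (67.2%). Over the whole transcripts of these genes, 0 stretches of 50 bases were shared between any 2 Dlx genes. Stretches shared with a transcript outside the family were found only in Dlx6, at 5.06% of its 2193 stretches. The sources used here give neither the read length nor the handling of reads that map to several places.

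The pair Dlx1 and Dlx2 spans 18.6 kb of chromosome 2 (71528113 to 71546754, mm10), with Dlx1 on the plus strand, Dlx2 on the minus strand and 9.43 kb between them. Dlx5 and Dlx6 span 18.7 kb of chromosome 6 (6863334 to 6882068), with Dlx6 on the plus strand, Dlx5 on the minus strand and 9.83 kb between them. Dlx3 and Dlx4 span 26.2 kb of chromosome 11 (95120117 to 95146294), with Dlx3 on the plus strand, Dlx4 on the minus strand and 15.2 kb between them. Exons of antisense genes cover 8.15% of the exon bases of Dlx1, 4.69% of those of Dlx6 and 3.46% of those of Dlx4. Library preparation kept strand, but the sources used here do not give the strand setting of the count, so antisense reads cannot be told apart in these stretches.

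Total counts lay between 23414466 and 44538260 per library, and Dlx genes summed to 9421 to 15849 of them. Ehmt2 stood at 119 to 140.4 TMM-scaled CPM (counts scaled to the library total) in DKO libraries and at 347 to 359.7 in control libraries. Ehmt1 stood at 133 to 168 CPM in DKO libraries and at 250.03 to 268 CPM in control libraries. The 7 markers of crest mesenchyme were all tested, and their summed level was 1371 to 1759 CPM in DKO libraries and 1631 to 1913 CPM in control libraries. Neurons of arch ganglia, part of which are also crest, were present too, with 5 markers summing to 839 to 899 CPM in DKO libraries and 871 to 1086 CPM in control libraries. The 10 ectoderm markers summed to 19.1 to 31.8 CPM in DKO libraries and 23.5 to 27.6 CPM in control libraries, and 0 of the 10 were at 0 counts in every library. DKO replicate 3 lay nearest the control libraries on the first principal component of log2 levels.

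None of the 6 Dlx genes passed the test between DKO and control crest, and the sign of the log2 fold change differed by linked pair. Dlx1 and Dlx2 had log2 fold changes near 0, and the 4 genes of the nested ventral pairs all had negative ones, led by Dlx3 (-0.49) and Dlx5 (-0.33). By edgeR's quasi-likelihood test, 0 of 6 members had an adjusted p below 0.05, against 3.01% of all tested genes (2.19% higher and 0.818% lower). DESeq2 called 0 of 6, against 624 higher and 482 lower of all 14555 tested genes. With limma-voom 0 of 6 were called, against 300 higher and 111 lower. At an unadjusted p below 0.05 the count was 2 of 6, Dlx3 and Dlx5, both lower in DKO, against 20.9% of tested genes in either direction and 9.89% lower. The same 2 genes had groups that did not overlap, lower in DKO, against 27.2% of tested genes that did not overlap in either direction (14.5% with DKO higher and 12.7% with DKO lower). The median log2 fold change was -0.22 over the 6 members and -0.01 over all tested genes. In libraries of bulk RNA, fewer cells that express a gene and less of its RNA per cell cannot be told apart.

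**Figure D1:**
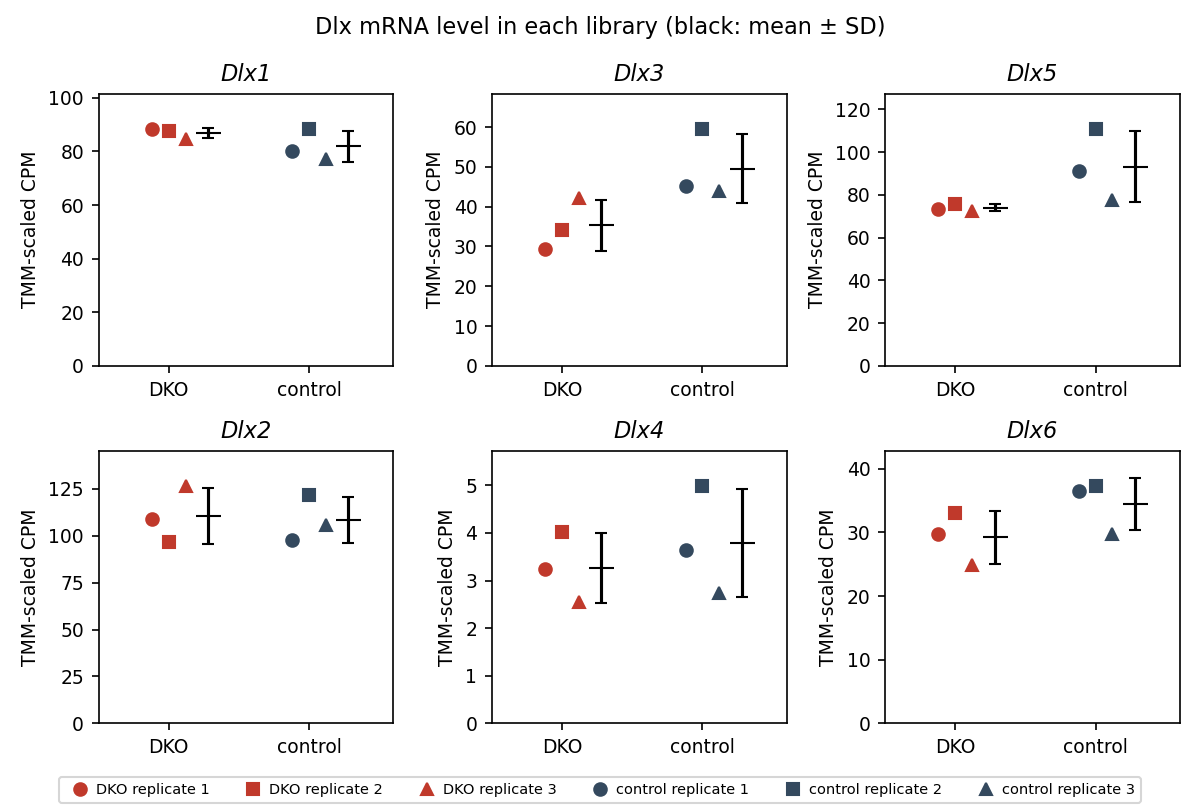
Level of each Dlx gene in TMM-scaled CPM (y axis, from 0, a scale for each gene) in the 3 DKO and 3 control libraries, with a symbol for each replicate and the mean ± SD beside them in black. DKO and control points are intermixed for Dlx1, Dlx2, Dlx4 and Dlx6 and do not overlap for Dlx3 and Dlx5, where the highest DKO library lies close under the lowest control library.

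Dlx1 is expressed along most of the arch and acts redundantly with Dlx2 in the upper jaw. It measured 88.3, 87.5 and 84.7 CPM in DKO replicates 1 to 3 and 80.03, 88.3 and 77.3 CPM in control replicates 1 to 3. The DKO libraries were tightly grouped and lay within or just above the upper part of the control range. Means were 86.8 ± 1.93 CPM in DKO crest and 81.9 ± 5.73 CPM in control crest (SD, n = 3 each), and the log2 fold change was 0.09 (SE 0.07; edgeR adjusted p = 0.541). The 95% interval, -0.08 to 0.25, takes in changes between 0.944-fold and 1.19-fold.

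Dlx2 is its linked partner and is also a marker of crest that has entered the arches. It measured 109, 96.6 and 126 CPM in DKO replicates 1 to 3 and 97.96, 122 and 106 CPM in the control replicates. The highest and the lowest values both came from DKO libraries, so the groups overlapped throughout. Means were 111 ± 14.9 CPM in DKO crest and 108 ± 12.2 CPM in control crest (SD, n = 3 each; log2 fold change 0.03, SE 0.12, 95% interval -0.24 to 0.30; by edgeR, adjusted p = 0.912). Its sign turned without DKO replicate 3 (-0.08) or control replicate 1 (-0.03).

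Dlx5 is a main effector of endothelin signalling in the lower jaw. It measured 73.6, 75.8 and 72.5 CPM in DKO replicates 1 to 3 and 91.2, 111 and 77.7 CPM in the control replicates. The DKO libraries sat within a narrow band below all control libraries, with control replicate 3 close to it and control replicate 2 far above. Means were 73.9 ± 1.69 CPM in DKO crest and 93.2 ± 16.6 CPM in control crest (SD, n = 3 each), and the log2 fold change was -0.33 (SE 0.12, 95% interval -0.61 to -0.06; edgeR adjusted p = 0.17). The coefficient of variation was 2.28% in DKO and 17.8% in control libraries. Without control replicate 2, the shallowest library, the log2 fold change was -0.18 (edgeR adjusted p = 0.418).

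Dlx6, which shares enhancers with Dlx5 and acts with it, measured 29.7, 33.1 and 24.8 CPM in DKO replicates 1 to 3 and 36.5, 37.2 and 29.8 CPM in the control replicates. The groups overlapped, since control replicate 3 fell among the DKO values. Means were 29.2 ± 4.17 CPM in DKO crest and 34.5 ± 4.10 CPM in control crest (SD, n = 3 each; log2 fold change -0.24, SE 0.13, 95% interval -0.54 to 0.06; by edgeR, adjusted p = 0.334). Control replicate 3 was the lowest control library for both Dlx5 and Dlx6. Without DKO replicate 3, the lowest of all, the log2 fold change was -0.13 (edgeR adjusted p = 0.492).

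Dlx3 works in the most distal mesenchyme, in surface ectoderm and later in bone and teeth. It measured 29.4, 34.2 and 42.2 CPM in DKO replicates 1 to 3 and 45.2, 59.5 and 44.0 CPM in the control replicates. All DKO libraries were below all control libraries, by a small margin between DKO replicate 3 and control replicate 3. Means were 35.3 ± 6.46 CPM in DKO crest and 49.6 ± 8.60 CPM in control crest (SD, n = 3 each), and the log2 fold change was -0.49 (SE 0.16, 95% interval -0.86 to -0.12; edgeR adjusted p = 0.149). Its 95% interval runs from 0.551-fold to 0.922-fold, and 87.2% of tested genes had a log2 fold change of this size or smaller. Without DKO replicate 3 the log2 fold change was -0.64 and passed the test (edgeR adjusted p = 0.0461). Without DKO replicate 1 it was -0.37 (adjusted p = 0.406) and without control replicate 2 it was -0.33 (adjusted p = 0.391). The 10 ectoderm markers summed to 19.1, 20.9 and 31.8 CPM in DKO replicates 1 to 3 and 27.6, 27.6 and 23.5 CPM in the control replicates, and their part in the level of Dlx3 was not tested.

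Dlx4, the linked partner of Dlx3, had the lowest level. It had 120, 176 and 114 counts in DKO replicates 1 to 3, against 163, 111 and 80 counts in the control replicates, which is 3.23, 4.02 and 2.55 CPM in DKO libraries and 3.65, 4.98 and 2.73 CPM in control libraries. Both groups covered nearly the same range. Means were 3.27 ± 0.737 CPM in DKO crest and 3.79 ± 1.13 CPM in control crest (SD, n = 3 each; log2 fold change -0.21, SE 0.27, 95% interval -0.83 to 0.42; by edgeR, adjusted p = 0.71). At 80 counts the counting error alone is 11.2% of the value, against 1.92% at the lowest count of Dlx2. A change as large as that fitted for Dlx3 lies inside the interval for Dlx4. Without control replicate 2 the log2 fold change of Dlx4 was 0.04.

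**Figure D2:**
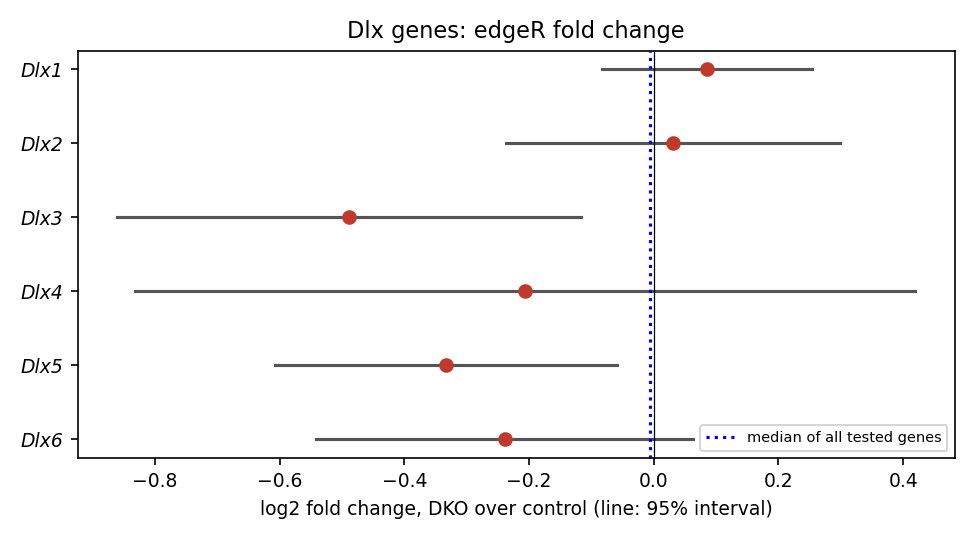
Log2 fold change of each Dlx gene, DKO over control (x axis), with its 95% interval from the edgeR fit as a line and the median of all tested genes as a dotted line. The intervals of Dlx3 and Dlx5 lie below 0 before adjustment for 14555 tests, and those of the other 4 genes take in 0.

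Levels per length give the order of the members. On the scale of CPM per kilobase of exon, Dlx5 stood highest, at 52.0 ± 1.19 in DKO and 65.5 ± 11.7 in control libraries, followed by Dlx2 at 44.8 ± 6.03 in DKO crest and 43.9 ± 4.94 in control crest (SD, n = 3 each). Dlx1 stood at 21.1 ± 0.468 in DKO and 19.9 ± 1.39 in control libraries. Dlx3 stood at 13.5 ± 2.48 in DKO and 19.0 ± 3.30 in control libraries, and Dlx6 at 13.2 ± 1.88 in DKO and 15.6 ± 1.85 in control libraries. Dlx4 was far below the rest, at 1.43 ± 0.323 in DKO and 1.66 ± 0.495 in control libraries. The neighbours Dlx5 and Dlx2 overlapped in DKO libraries and did not overlap in control libraries. Dlx1 and Dlx3 overlapped in control libraries and did not in DKO libraries, and Dlx3 and Dlx6 overlapped in DKO libraries and were just apart in control libraries. Exon lengths are those of GENCODE M21, and the annotation behind the count may differ.

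The next comparison is by linked pair, whose partners share enhancers. Between partners, the ratio of counts within a library does not depend on scaling. The log2 ratio of Dlx1 over Dlx2 was -0.31, -0.14 and -0.58 in DKO replicates 1 to 3, against -0.29, -0.47 and -0.45 in the control replicates. The DKO values bracketed the control values, and the means differed by 0.06 (exact permutation p = 0.7, 2-sided). The log2 ratio of Dlx5 over Dlx6 was 1.31, 1.20 and 1.55 in DKO replicates, against 1.32, 1.57 and 1.38 in control replicates, a difference of -0.08 (exact permutation p = 0.5). The log2 ratio of Dlx3 over Dlx4 was 3.18, 3.09 and 4.05 in DKO replicates, against 3.63, 3.58 and 4.01 in control replicates, a difference of -0.30 (exact permutation p = 0.5) that was -0.60 without DKO replicate 3 and -0.12 without DKO replicate 2. Each adjusted p over the 3 pairs was 0.7. The smallest p that 3 against 3 can give is 0.1, so a change in balance within a pair was not detectable and is not shown to be absent.

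The balance between pairs was taken as the share of each pair. Of all Dlx counts in a library, Dlx1 and Dlx2 held 59.2%, 55.6% and 59.8% in DKO replicates 1 to 3, against 50.2%, 49.7% and 54.2% in control replicates. This share was higher in all 3 DKO libraries than in all 3 control libraries, at 58.2% ± 2.28 in DKO crest and 51.4% ± 2.48 in control crest (SD, n = 3 each), with an exact permutation p of 0.1, the smallest possible here, and an adjusted p of 0.2. Dlx3 and Dlx4 held 9.79%, 11.55% and 12.7% in DKO replicates, against 13.8%, 15.3% and 13.9% in control replicates, again without overlap (exact permutation p = 0.1, adjusted p = 0.2). Dlx5 and Dlx6 held 31.0%, 32.9% and 27.6% in DKO replicates, against 36.0%, 35.0% and 31.9% in control replicates, where DKO replicate 2 overlapped control replicate 3 (exact permutation p = 0.2, adjusted p = 0.2). Per-library shares of 1 total cannot all move freely, so the 3 shares are not independent results. The p-values were adjusted over these 3 shares and the summed level.

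**Figure D3:**
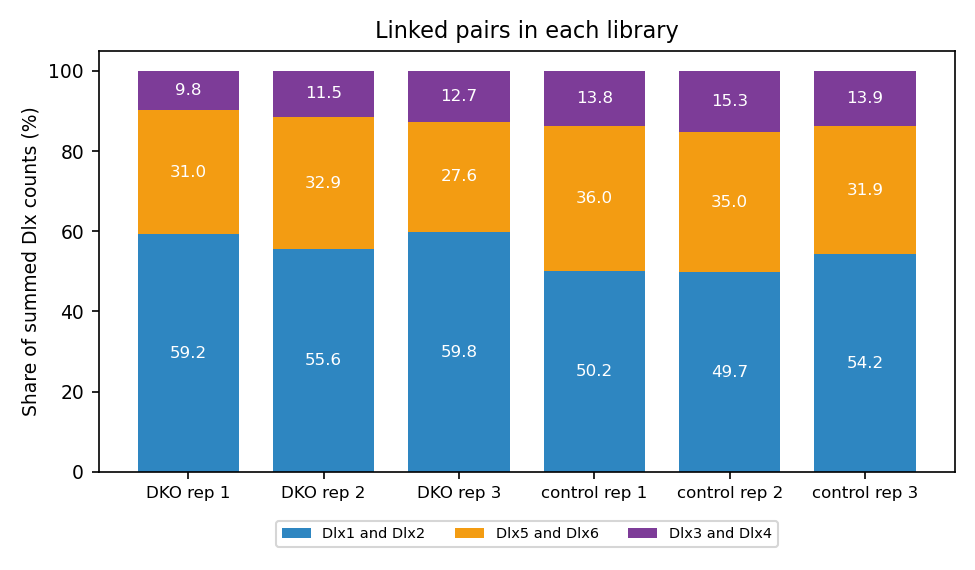
Share of the summed counts of Dlx1 to Dlx6 held by each linked pair (y axis, percent) in each library, DKO libraries first. The lowest segment, Dlx1 and Dlx2, is 55.6% to 59.8% in DKO libraries and 49.7% to 54.2% in control libraries, and the upper segment, Dlx3 and Dlx4, is 9.79% to 12.7% in DKO libraries and 13.8% to 15.3% in control libraries.

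The summed level of the family was 333, 331 and 353 CPM in DKO replicates 1 to 3 and 354, 423 and 337 CPM in control replicates. Control replicate 2 stood above the other 5 libraries. The sum averaged 339 ± 11.97 CPM in DKO crest and 371 ± 45.2 CPM in control crest (SD, n = 3 each; exact permutation p = 0.2, adjusted p = 0.2). The difference of -32.1 CPM was -6.53 CPM without control replicate 2 and -12.2 CPM with scaling by library size only. Per pair, the sum of Dlx1 and Dlx2 was 184 to 211 CPM in DKO and 178 to 210.2 CPM in control libraries. The sum of Dlx5 and Dlx6 was 97.3 to 109 CPM in DKO and 107 to 148 CPM in control libraries, and that of Dlx3 and Dlx4 was 32.6 to 44.7 CPM in DKO and 46.8 to 64.5 CPM in control libraries. Relative to Dlx1 and Dlx2, the count of Dlx3 and Dlx4 was 0.194-fold in DKO and 0.278-fold in control libraries. That of Dlx5 and Dlx6 was 0.522-fold in DKO and 0.667-fold in control libraries (means on the log2 scale, not tested).

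Markers of other positions and cells were set beside these shares. Hox genes are silent in the first arch and mark the second and later ones, and their 7 listed members summed to 19.9, 87.9 and 134 CPM in DKO replicates 1 to 3 and to 108, 100.1 and 123 CPM in control replicates. Their part in the Dlx values was not tested. DKO replicate 1, with the lowest Hox sum, also had the lowest Dlx3 level. DKO replicate 3, with the highest Hox sum, had the highest Dlx2 and, of the DKO libraries, the highest Dlx3 level. In the control libraries the order was reversed, with Dlx3 at 45.2, 59.5 and 44.0 CPM in replicates 1 to 3. Control replicate 2, with the lowest Hox sum of its group, had the highest Dlx3 level of all libraries. Without DKO replicate 1 the share of Dlx1 and Dlx2 differed by 6.28 percentage points in place of 6.80. Markers of forebrain GABA neurons, which also express Dlx genes, summed to 52.0, 38.3 and 49.95 CPM in DKO replicates. They summed to 36.4, 33.3 and 37.1 CPM in control replicates. All 5 of these markers had positive log2 fold changes and 0 were called by edgeR (3 at an unadjusted p below 0.05, 0 by DESeq2 or limma-voom). Over all tested genes, edgeR gave an unadjusted p below 0.05 for 20.9%. Endothelial markers summed to 24.5 to 27.2 CPM in DKO and 12.1 to 16.1 CPM in control libraries. By edgeR 1 of 5, Tie1, was called higher, against 2.19% of all tested genes. Tie1 alone averaged 8.05 CPM in DKO crest, against 0.965 CPM in control crest, while Pecam1, Cdh5, Kdr and Tek were not called by edgeR (log2 fold changes 0.21 to 0.79). Pecam1 measured 6.17, 7.54 and 5.77 CPM in DKO replicates, all above the 4.85, 2.87 and 3.42 CPM in control replicates (by edgeR, adjusted p = 0.111). DESeq2 called both Pecam1 and Tie1 higher, and limma-voom only Tie1. Groups overlapped for Cdh5, Kdr and Tek. Blood markers, 4 of 5 tested, summed to 13.7, 42.4 and 225 CPM in DKO replicates, against 125, 67.97 and 117 CPM in control replicates. The order of the DKO libraries was that of the Hox sums and Dlx3, but control replicate 2, with the lowest blood sum of its group, had the highest Dlx3 level. The part of these 3 lists in the Dlx levels was not tested.

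Across the 6 libraries, log2 levels of Dlx5 and Dlx6 had a Pearson correlation of 0.80, those of Dlx1 and Dlx2 0.31 and those of Dlx3 and Dlx4 0.37. Correlations this high were common, since 775 other tested genes tracked Dlx5 more closely than Dlx6 did. The highest between members was that of Dlx4 with Dlx6, at 0.88. Among genes with a mean of at least 10 CPM, those most like the mean of Dlx5 and Dlx6 were Nid1 (r = 0.997), Tpgs2 (0.997) and Zfp362 (0.996). Those most like Dlx1 and Dlx2 were Slc43a1 (0.982), Uhrf2 (0.980) and Ifrd2 (0.9753), and those most like Dlx3 and Dlx4 were Safb (0.985), Mrpl55 (0.971) and Anapc10 (0.967). These values describe 6 libraries that include both genotypes and were ranked over 10222 or more genes.

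Within 500 kb of a pair, 27 protein-coding genes were tested, of which 0 were higher and 1 was lower by edgeR. Their log2 fold changes were negative for 17, with a median of -0.03. Noncoding genes near the pairs were left out. Over all tested genes, 2.19% were called higher and 0.818% lower. The 1 called gene was Spop, which encodes an adaptor of a ubiquitin ligase and was named after its value was seen. It lies 268 kb from Dlx3 and Dlx4 and measured 68.7, 75.7 and 62.9 CPM in DKO replicates, against 86.4, 97.0 and 101 CPM in control replicates (log2 fold change -0.46, SE 0.09; by edgeR, adjusted p = 0.0411). This call ended with scaling by library size only (adjusted p = 0.0611), with a filter of at least 1 CPM in 3 libraries (0.0516) and without DKO replicate 1 or any 1 control replicate (0.0634 to 0.172). Col1a1, a bone gene described further on, lies 167 kb from Dlx3 and Dlx4 on the other side. The nearest tested genes to Dlx1 and Dlx2 were Metap1d, a mitochondrial methionine aminopeptidase gene 2.92 kb away, at 0.21 (SE 0.25; edgeR adjusted p = 0.665), and the laminin receptor gene Itga6, 240.1 kb away, at -0.30 (SE 0.10; adjusted p = 0.147). Next to Dlx3 and Dlx4, the integrin gene Itga3 and the histone acetyltransferase gene Kat7 had log2 fold changes of 0.02 and -0.02. Next to Dlx5 and Dlx6, the proteasome subunit gene Sem1 and the mitochondrial assembly factor gene Sdhaf3 had -0.01 and 0.12. These were the 2 tested protein-coding genes within 500 kb.

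**Figure D4:**
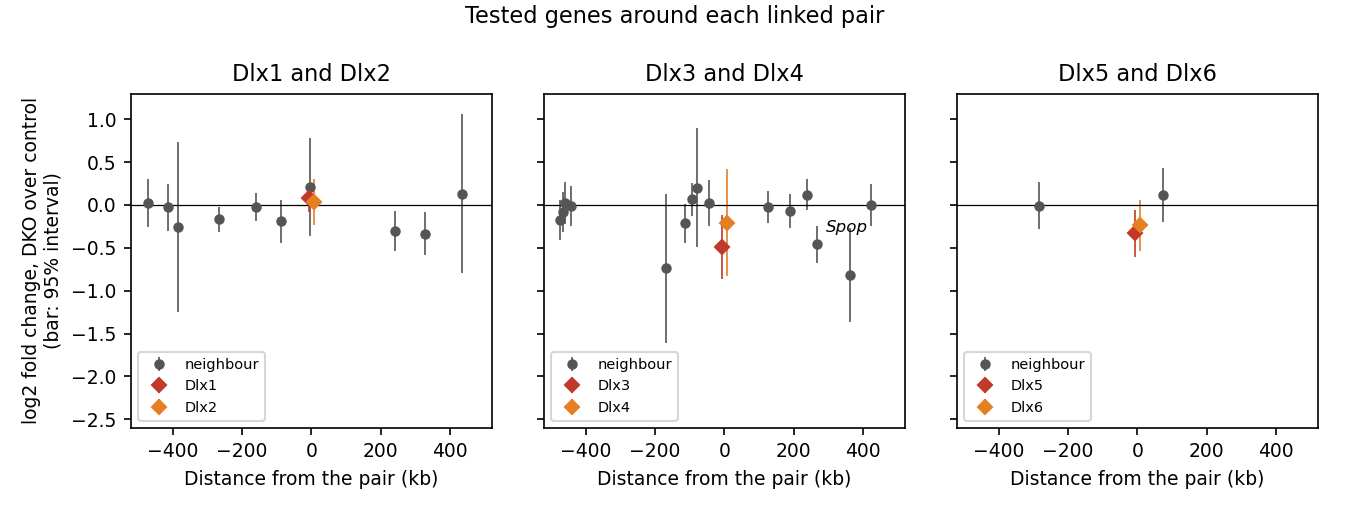
Log2 fold change, DKO over control, with its 95% interval (y axis) for the tested protein-coding genes within 500 kb of each linked pair. The x axis is distance from the pair in kb, negative toward lower coordinates. The Dlx genes are diamonds drawn side by side at the centre, and Spop is named as the 1 neighbour that passed the test.

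Genes that act upstream of Dlx5 and Dlx6 were mostly not called. For this list and those below, edgeR called 2.19% of all tested genes higher and 0.818% lower. At an unadjusted p below 0.05 by edgeR, the share was 20.9% in either direction and 9.89% lower. Of the 14555 tested genes, DESeq2 called 624 higher and 482 lower, and limma-voom 300 higher and 111 lower. Of 8 genes of endothelin input, 0 were called by edgeR (3 lower and 0 higher at an unadjusted p below 0.05, 0 by DESeq2 and limma-voom), with a median log2 fold change of -0.08. Ednra, the receptor of endothelin 1 on arch crest, measured 157, 161 and 121 CPM in DKO replicates, against 136, 147 and 123 CPM in control replicates (log2 fold change 0.11, SE 0.12; by edgeR, adjusted p = 0.626). Gnaq, the G protein gene downstream of it, stood at -0.19 (SE 0.06; adjusted p = 0.149). The ligand gene Edn1 is made mainly outside the crest and stood at 0.411 to 0.603 CPM in DKO and 0.246 to 0.538 CPM in control libraries. Of 13 genes of BMP input, which favours the distal Dlx and Hand genes, 0 rose and 1 fell by edgeR (3 lower and 0 higher at an unadjusted p below 0.05, 2 by DESeq2, 1 by limma-voom), with 12 negative log2 fold changes and a median of -0.17 that was -0.04 without DKO replicate 3. The 1 that fell was the receptor gene Bmpr1a, at 219, 236 and 227 CPM in DKO replicates, against 285, 299 and 283 CPM in control replicates (log2 fold change -0.35, SE 0.07; by edgeR, adjusted p = 0.0349), a call that ended with library size only (0.0659), with a replicate block (0.0567) and without any 1 library other than DKO replicate 3 (0.0767 to 0.195). Bmpr2, the type II receptor gene, was not called (log2 fold change -0.49, SE 0.12; by edgeR, adjusted p = 0.0724) but was called by DESeq2 and, by edgeR, without DKO replicate 3 or control replicate 3.

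Of 11 genes that depend on Dlx5 and Dlx6 in the mouse lower jaw, 0 rose and 1 fell by edgeR (2 lower and 0 higher at an unadjusted p below 0.05, 1 each by DESeq2 and limma-voom), with 6 negative log2 fold changes. The median was -0.02, and 0.06 with library size only or without control replicate 2. The 1 that fell was Hand1, whose helix-loop-helix factor acts at the arch tip and which also depends on BMP signals and on Hand2. It measured 9.0, 8.84 and 9.72 CPM in DKO replicates, against 15.6, 17.5 and 19.2 CPM in control replicates (log2 fold change -0.92, SE 0.12; by edgeR, adjusted p = 0.00776). The call ended without DKO replicate 1 (adjusted p = 0.0501) and held without each other library. Its relative Hand2, the better known target of the endothelin and Dlx pathway, measured 91.8, 90.7 and 79.3 CPM in DKO replicates, against 91.5, 112 and 94.4 CPM in control replicates (log2 fold change -0.18, SE 0.10; by edgeR, adjusted p = 0.319). The netrin receptor gene Unc5c measured 75.4, 90.3 and 93.96 CPM in DKO replicates, all below the 111, 95.4 and 109 CPM in control replicates (log2 fold change -0.28, SE 0.10; by edgeR, adjusted p = 0.172). The rest of the list, which includes goosecoid (Gsc), Pitx1, Gbx2, Alx4, Bmp7, Cited1 and Rgs5, had log2 fold changes between -0.08 and 0.14. Edn1, Bmpr2, Hand2, Unc5c and these 7 genes were named after their values were seen.

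Of 9 upper-jaw genes, which spread into the lower jaw when Dlx5 and Dlx6 are lost in the mouse, 0 were called by edgeR (3 lower and 0 higher at an unadjusted p below 0.05, 1 by DESeq2, 0 by limma-voom), with a median log2 fold change of -0.30. Nr2f1, an orphan nuclear receptor gene, had a log2 fold change of 0.01 (SE 0.07; by edgeR, adjusted p = 0.957) and the homeobox gene Meis2 -0.33 (SE 0.10; adjusted p = 0.126). Of 12 shared regulators of arch mesenchyme, 0 were called by edgeR (3 lower at an unadjusted p below 0.05, 2 by DESeq2, 0 by limma-voom), with a median of -0.19. Prrx1 stood at -0.31 (SE 0.11; edgeR adjusted p = 0.166) and Twist1 at 0.01 (SE 0.13; adjusted p = 0.985). Of 6 tested bone genes of the 7 listed, 0 were called (1 at an unadjusted p below 0.05, 0 by DESeq2 and limma-voom), with a median of -0.26 that was 0.29 without control replicate 1 and -0.07 without DKO replicate 2. Ibsp, which failed the filter on low counts with all libraries, was called higher without DKO replicate 2. It passed the filter in both of these alternatives, so their medians cover all 7 genes and not the same 6. Col1a1, the main collagen gene of bone, measured 235, 344 and 141 CPM in DKO replicates, against 504, 393 and 305 CPM in control replicates, with an overlap between DKO replicate 2 and control replicate 3 (log2 fold change -0.74, SE 0.35; by edgeR, adjusted p = 0.296). Runx2, the master regulator of bone, ranged from 17.9 to 85.4 CPM in DKO and from 31.8 to 104 CPM in control libraries (log2 fold change -0.18, SE 0.72; by edgeR, adjusted p = 0.916). All 7 Hox genes had negative log2 fold changes (median -0.45, and 0.09 without DKO replicate 1) and 0 were called (0 at an unadjusted p below 0.05, 0 by DESeq2 and limma-voom), with Hoxa2 at -0.52 (SE 0.40; adjusted p = 0.5) and Hoxb3 at -0.50 (SE 0.95; adjusted p = 0.817).

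**Figure D5:**
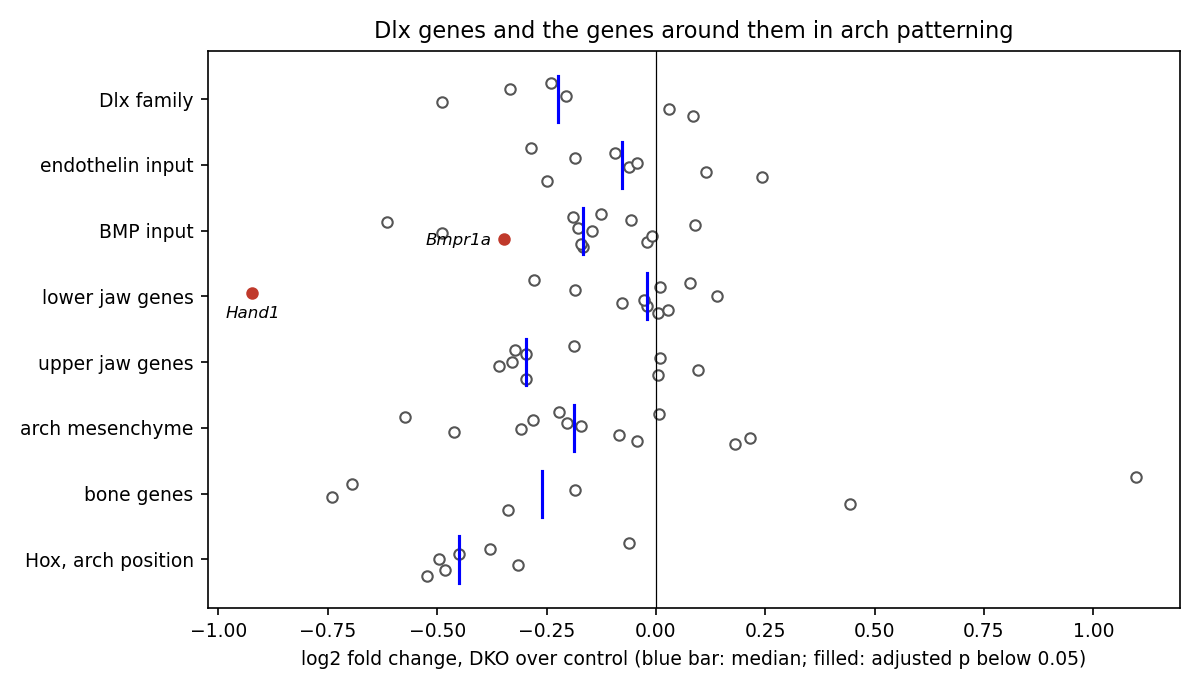
Log2 fold change, DKO over control (x axis), of each tested gene of the Dlx family and of 7 lists of arch patterning genes (rows), with the median of each row in blue and genes with an adjusted p below 0.05 filled. The Dlx genes lie between -0.49 and 0.09, and Hand1 and Bmpr1a are the 2 filled points.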

How the data were processed

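RNA was measured in 3 DKO and 3 control libraries of polyadenylated RNA. The authors deposited raw counts for each gene symbol, as whole numbers that were not normalized. Trim Galore, STAR 2.7.10a, Picard and the build mm10 are named per the submitters' processing notes. The sources used here name no counting program, annotation, strand setting or treatment of duplicates.

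The test was run in edgeR 4.0.16 under R 4.3.3, after filterByExpr by group with its minimum count of 10 and minimum total of 15, with TMM scaling and the robust quasi-likelihood test with group as the only term, 2-sided. Benjamini-Hochberg adjustment covered the 14555 tested genes, and an adjusted p below 0.05 made a call. The SE is the size of the log2 fold change divided by the root of F, and the 95% interval uses the fit's degrees of freedom. Ratios and shares were compared by exact permutation tests (scipy 1.17.1). On counts simulated for DKO against control over 14555 genes, the test recovered 87 of 100 genes changed 2-fold and 100 of 100 changed 4-fold, with 3.61% of its calls unchanged genes. Changes under 2-fold were not simulated.

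Coordinates are those of RefSeq on GRCm38.p6, and sequences and exon lengths come from GENCODE M21 of the same build. Named genes are the 6 members, Ehmt1 and Ehmt2, and up to 3 called genes per list or else the 2 with the highest level. The nearest tested protein-coding gene on each side of a pair and the 3 genes most like each pair are also named. The genes, lists and tests were chosen with earlier results of these data known. Alternatives were RLE factors, library size only, other filters, DESeq2 1.42.0, limma-voom (limma 3.58.1), a replicate block and leaving out each library.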

Additional observations from a re-analysis of the deposited data

How the results depend on the processing

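Of 160 values recomputed under an alternative, 139 were labelled the same. For log2 fold changes this meant the same direction and side of the threshold, and for counts of called genes a count of similar size. Ratios, shares and the sum could only change direction, since their exact permutation p cannot fall below 0.1. Shares come from raw counts, so other scaling could not change them. For the ratios, the replicate block recomputed only the p-value, so their direction could not change there. These entries are among the 139. No Dlx gene was called with RLE factors, library size only, either other filter, DESeq2, limma-voom or the replicate block, and Dlx3 was called only without DKO replicate 3. Leaving out 1 library at a time gave log2 fold changes of 0.04 to 0.15 for Dlx1, -0.08 to 0.13 for Dlx2 (-0.0754 without DKO replicate 3 and -0.0286 without control replicate 1), -0.64 to -0.33 for Dlx3, -0.39 to 0.04 for Dlx4 (0.0359 without control replicate 2), -0.45 to -0.18 for Dlx5 and -0.34 to -0.13 for Dlx6. It moved the difference in log2 ratio to between -0.0393 and 0.18 for Dlx1 over Dlx2 and to between -0.18 and 0.00017 for Dlx5 over Dlx6, with -0.0393 and 0.00017 both reached without DKO replicate 2, to between -0.60 and -0.12 for Dlx3 over Dlx4, to between -49.3 and -6.53 CPM for the family's sum, and the difference in share of Dlx1 and Dlx2 to between 5.97 and 8.22 percentage points. The counts over all tested genes, 319 higher and 119 lower, became 624 and 482 with DESeq2, and 110 to 597 higher and 21 to 509 lower without 1 library; the cause was not tested. Library size only gave 416 higher and 80 lower (83.9% higher, against 72.8%) and Dlx1 a log2 fold change of 0.17 (edgeR adjusted p = 0.213). Over these alternatives the list medians ran from -0.17 to -0.00 for endothelin input, -0.30 to -0.18 for upper-jaw genes and -0.25 to -0.05 for mesenchyme regulators, of which Tfap2a was called lower with no filter, DESeq2, the replicate block and without DKO replicate 3. Same-numbered libraries had correlations of deviations of -0.01, -0.00 and 0.42. Those of differently numbered libraries ran from -0.47 (DKO replicate 2 with control replicate 3) to 0.51 (DKO replicate 2 with control replicate 1), so the numbers were not taken as pairs. With the replicate block Dlx3 stood at -0.49 and Dlx5 at -0.32 (edgeR adjusted p = 0.0882 and 0.11), and 423 genes were higher and 196 lower. The depth limits Dlx4 most, and 3 libraries a group limit all members.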
